A study of Mus musculus with 8 samples.

Results

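The cytosolic ribosomal proteins on the array are the probes whose gene symbol starts with Rpl or Rps and a digit, or with Rplp or Rpsa, leaving out the Rps6k kinases. The rule found 83 probes for 64 symbols among the 25697 probes and 18138 symbols of the file. The large (60S) subunit held 49 of these probes for 36 symbols, and the small (40S) subunit 34 probes for 28 symbols. Of the 83 probes, 74 for 56 symbols named core ribosomal proteins, and the other 9 named paralogs or other products (Rpl3l, Rpl7l1, Rpl22l1, Rpl36al, Rpl39l, Rps27l, Rps4y2 and Rps19bp1). Rps19bp1 encodes a protein that binds S19 and is not itself a ribosomal protein. Rpl5, Rpl7, Rpl10, Rpl10l, Rpl11 and Rps27 were not analysed here.

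The ribosome is built from ribosomal RNA and one copy each of most ribosomal proteins, with the small subunit decoding mRNA and the large subunit forming peptide bonds. Most ribosomal protein mRNAs are among the most abundant in a growing cell, and they start with a tract of pyrimidines (the TOP motif) through which mTOR signalling controls their translation. Several members have work outside the ribosome, and in macrophages L13a (Rpl13a) is known as part of the GAIT complex, which binds inflammatory mRNAs some hours after IFN-γ.

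RNA came from bone marrow cells of female mice aged 8 weeks, labelled with the strain C57bl/6J, that had been cultured over 7 days with 10 ng/ml of the growth factor GM-CSF to yield macrophages. There were 4 groups, 2 of WT cells (unstimulated and M1) and 2 of iNOS-/- cells (unstimulated and M1), and M1 cells had received LPS (200 ng/ml), a bacterial activator of Toll-like receptors, and IFN-γ (10 ng/ml) for 6 h. The iNOS-/- mice carry a germline Nos2 allele, so the change is in every cell type of the culture and in the living animal before it. Each group was measured on 2 Illumina bead arrays, and nothing in the sources says that both came from different mice, so p-values measure the spread between arrays.

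Values below are log2 scaled intensities, where a difference of 1 is a doubling, and a probe is called where limma's Benjamini-Hochberg adjusted p over the 13868 probes tested is under 0.05. Between 11833 and 12673 probes per array were detected (detection p-value under 0.05). The targeted gene itself, Nos2, had a mean log2 intensity of 7.25 in the WT M1 group and 7.61 in the group labelled iNOS-/- M1 (adjusted p = 0.397 from limma). Whether its probe lies in the altered stretch of the gene is not given, so it does not check the genotype labels. Macrophage markers were detected throughout, 13 of 13 probes on both arrays of every group, while 5 of 6 T cell probes and 5 of 6 B cell probes were detected on no array. The summed scaled intensity of the macrophage markers was 41500 to 42700 in WT unstimulated and 43000 to 47600 in WT M1. It was 31800 to 33800 in iNOS-/- unstimulated and 47200 to 47600 in iNOS-/- M1. The T cell list summed to 6.39 to 15.2 in WT unstimulated, 32 to 40 in WT M1, 15.1 to 15.8 in iNOS-/- unstimulated and 133 to 150 in iNOS-/- M1 through its remaining probe, Lck. Markers of dividing cells moved strongly with the groups: their summed scaled intensity was 1210 to 1270 in WT unstimulated, 3850 to 4040 in WT M1, 4380 to 4400 in iNOS-/- unstimulated and 1710 to 1760 in iNOS-/- M1. Markers of dendritic cells summed to 846 to 853, 16600 to 17200, 13600 to 14500 and 36900 to 38400 in the same order, and those of granulocytes to 1110 to 1140, 1320 to 1440, 1630 to 1710 and 3840 to 3940. Cd3e was detected on no array. In bulk RNA, fewer cells of a type and less RNA per cell cannot be told apart. The part of these shifts in the results below was not tested.

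The array reads each mRNA through probes of 50 bases, and the sequences below are those of the single members that the comparisons turn on. They are printed in lower case from 5′ to 3′ as the file gives them, in whole for Rps27l and the brighter Rps24 probe and as the first 30 bases for the rest, and nothing in them is capitalised.
Rps24, probe 2710477, position 409: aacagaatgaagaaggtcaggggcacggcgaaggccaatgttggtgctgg
Rps24, probe 5490446, position 704: ctacatgggcaaagtgtaggaccaattacc
Rps27l, probe 2650253, position 196: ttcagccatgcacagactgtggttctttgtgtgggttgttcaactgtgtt
Rpl22, probe 4640239, position 1771: gcgtttccttccaacttcaggtgcagcccc
Rpl3l, probe 1850100, position 962: gcacacctgggatgtagcactcttgctatc
Rpl23, probe 670176, position 745: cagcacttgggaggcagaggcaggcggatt
Positions are those of the first probe base in the transcript, from the file. The file lists the brighter Rps24 probe under transcript variant 1, as a probe of all isoforms, and the dimmer under variant 2, and they gave opposite results after activation of WT cells. The Rpl23 probe has the letters of the mouse B1 interspersed repeat, and a stretch of 20 of its bases occurred in the promoter windows of 3 other genes, against 0 or 1 other gene for each of the other 82 probes. One other overlap was found, a run of 25 bases that a probe of Rps9 shared with a probe of LOC546015 among 25614 other probes.

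Promoters were read from RefSeq (GRCm38.p6), from 250 bases before to 50 bases after the start, and 51 of the 63 member genes with an Entrez identifier were matched. Symbols without a matched window included Rpl21, Rps3a, Rps14, Rps4y2, Rpl3, Rpl29, Rpl17, Rpl30, Rps27a and Rplp1. The windows below run from 30 bases before to 30 bases after the start, and capitals mark the pyrimidine motifs, spelled CTTTTC or else CTTTCC or else TCTTTC, on the coding strand. The first 4 hold at least 1 of these spellings and the last 4 hold none, though Rps6, Rps27l and Rpl22l1 have pyrimidine stretches spelled otherwise.
Rpl35, chr2:39005102-39005161, minus strand: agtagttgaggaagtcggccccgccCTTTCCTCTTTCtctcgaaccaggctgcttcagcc
Rps10, chr17:27635215-27635274, minus strand: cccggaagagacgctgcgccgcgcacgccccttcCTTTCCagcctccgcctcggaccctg
Rpl27a, chr7:109519165-109519224, plus strand: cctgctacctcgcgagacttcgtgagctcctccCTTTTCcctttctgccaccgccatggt
Rpl13a, chr7:45128716-45128775, minus strand: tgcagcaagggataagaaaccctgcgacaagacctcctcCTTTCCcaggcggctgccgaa
Rps6, chr4:86857338-86857397, minus strand: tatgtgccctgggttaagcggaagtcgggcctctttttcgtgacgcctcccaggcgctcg
Rps27l, chr9:66946056-66946115, plus strand: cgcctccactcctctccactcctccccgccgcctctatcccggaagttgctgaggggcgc
Rpl3l, chr17:24727796-24727855, plus strand: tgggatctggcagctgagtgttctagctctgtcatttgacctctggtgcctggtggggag
Rpl22l1, chr3:28805478-28805537, plus strand: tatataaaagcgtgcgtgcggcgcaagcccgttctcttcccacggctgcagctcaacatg
A pyrimidine motif within 50 bases of the start was present for 25 of the 51 genes (49%), against 12% of the 27025 genes of the table. On either strand of the whole window, CCGGAAG (an ETS motif) was held by 43.1% of the 51 against 9.93% of all, GGGCGG (Sp1) by 68.6% against 38.2%, AAGATGG (YY1) by 15.7% against 7.28%, and TATAAA by 11.8% against 15.7%. The 3 pyrimidine spellings overlap one another, and these are matches of letters, not sites.

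The ribosomal protein probes were mostly bright, and those that started far into the transcript were dimmer. Of the 83 probes, 66 were detected on all 8 arrays, 73 were tested (41 large and 32 small subunit) and 10 were not. The 10 were the single probes of Rpl14, Rpl17, Rpl6, Rpl39l, Rplp2 and Rps23, both weaker Rpl37 probes, 1 of 2 Rpl4 probes and 1 of 2 Rpsa probes. Among the 74 core probes, the median of the mean log2 intensity was 12.41 for the 28 starting in the first 250 bases, 12.66 for 20 starting after base 250 and up to 500, 7.81 for 14 starting after 500 and up to 1000 and 3.84 for 12 beyond that. Spearman's rho between start and level was -0.48 across the 74 probes, which are not independent. Across the 58 core probes detected on all 8 arrays it was -0.32.

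**Figure D1:**
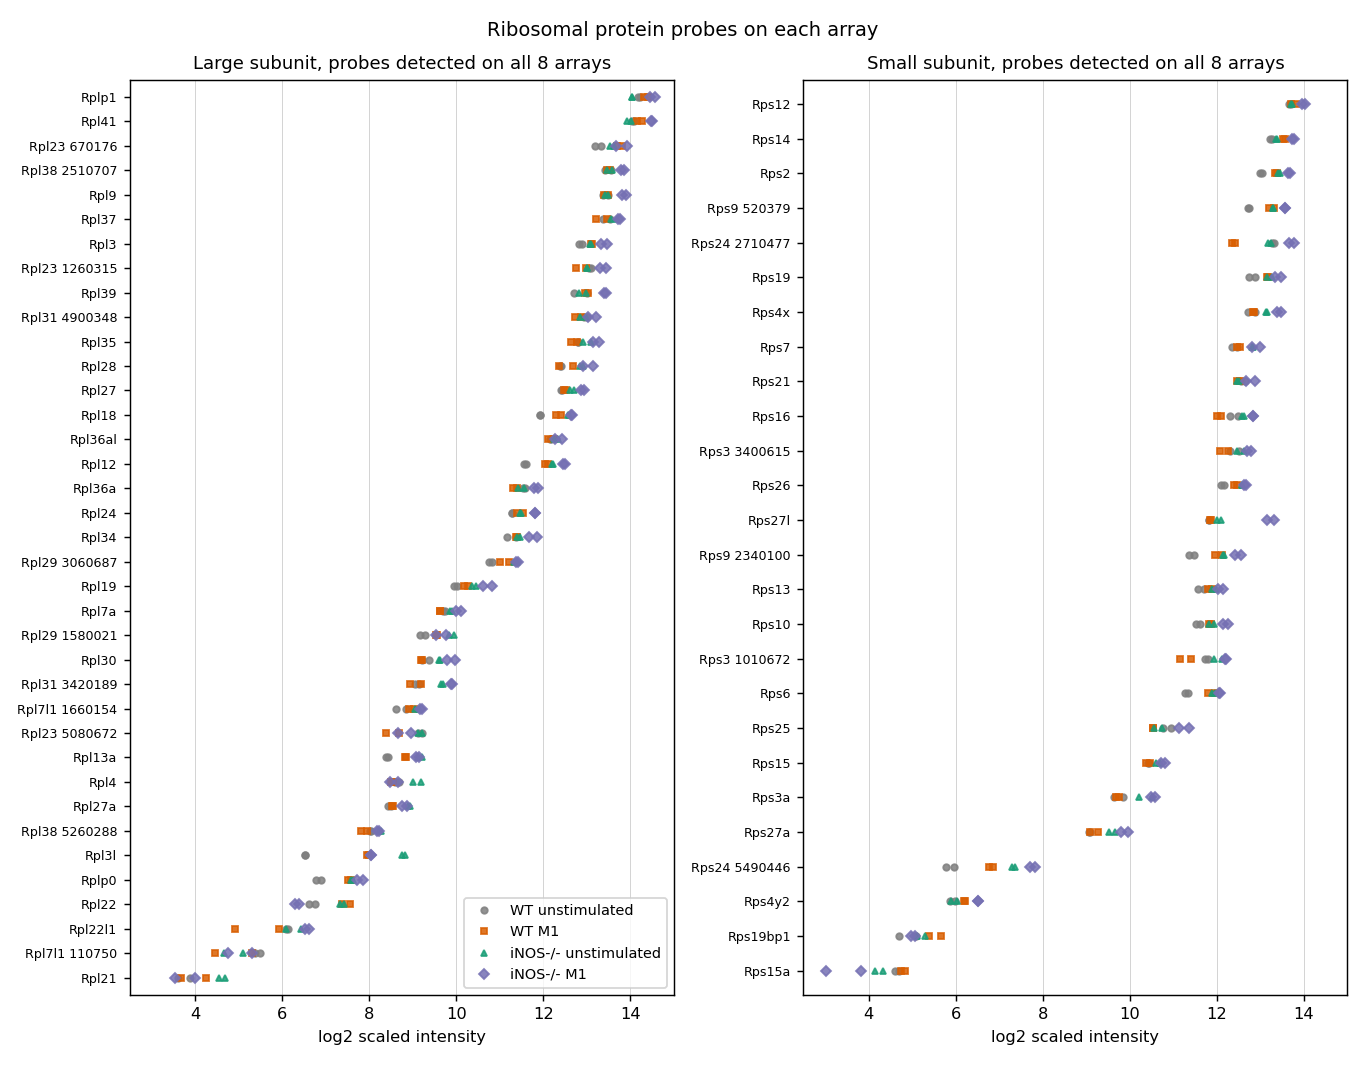
Log2 scaled intensity of 63 of the 66 ribosomal protein probes detected on all 8 arrays, large subunit on the left and small on the right, ordered by mean, with each array as a point coloured by group. Most probes lie above 11, and groups differ visibly for Rps24 (both probes), Rps27l, Rpl3l and Rpl22.

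The brightest large subunit probe was Rplp1, a stalk protein, at 14.18 and 14.22 in WT unstimulated, 14.32 and 14.40 in WT M1, 14.03 and 14.04 in iNOS-/- unstimulated and 14.45 and 14.57 in iNOS-/- M1. The brightest small subunit probe was Rps12, with array values from 13.66 to 14.04. The dimmest probes detected on every array were Rpl21 (probe 3290050, mean 4.02) and Rps15a (mean 4.27), whose probes start at 1362 and 5025. Within a group, the median absolute difference between its 2 arrays was 0.081 to 0.099 over the member probes detected on all arrays, against 0.118 to 0.135 over all such probes.

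As a share of all deposited intensity on an array, which needs no scaling, the members were highest in unstimulated iNOS-/- cells. No test was made on these shares. They took 5.83% and 5.86% on the WT unstimulated arrays, 6.02% and 6.09% on the WT M1 arrays, 7.16% and 7.08% on the iNOS-/- unstimulated arrays, and 6.14% and 6.23% on the iNOS-/- M1 arrays. The iNOS-/- unstimulated arrays lay above the other 6 and the WT unstimulated arrays below them, with no overlap between groups. The large subunit made up 3.18% to 3.75% and the small subunit 2.65% to 3.41%.

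**Figure D2:**
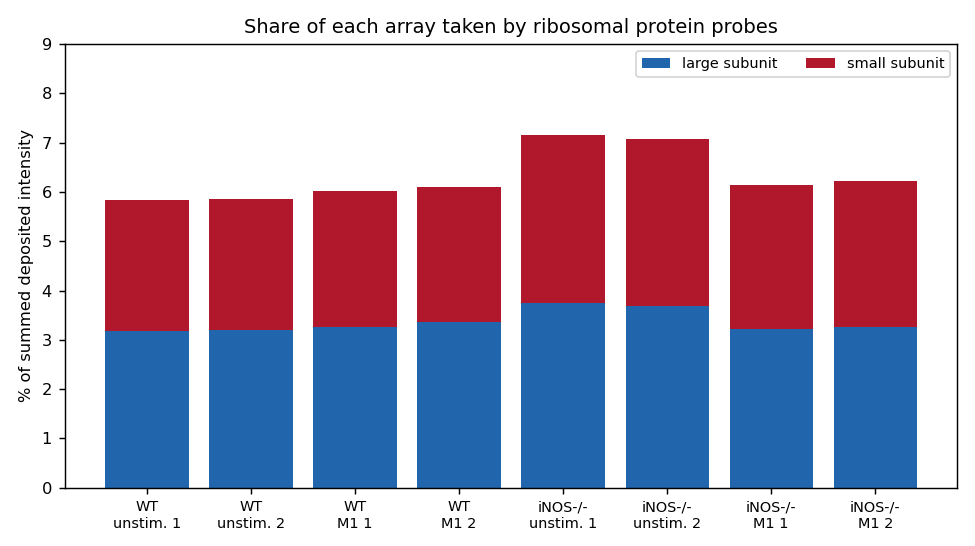
Share of the summed deposited intensity of each of the 8 arrays that ribosomal protein probes took, in percent, with the large subunit at the bottom and the small subunit on top. The 2 iNOS-/- unstimulated arrays stand at 7.16% and 7.08%, above the other 6 arrays.

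Among activated cells, where the question is how those without iNOS differ, most ribosomal protein probes were higher in iNOS-/- M1 than in WT M1. Of 41 large subunit probes 23 were called higher and 1 lower, and of 32 small subunit probes 18 were called higher and 1 lower, where 24.2% of all probes tested were called higher, 24.3% lower and 48.5% in either direction. The median log2 difference was 0.33 for the large and 0.35 for the small subunit, against 0.00 over all probes. The groups did not overlap for 60 of the 73 probes with iNOS-/- higher and for 5 with it lower, against 37.8% and 36.9% of all probes. The direction depends on how the arrays are scaled: under quantile normalization the medians were -0.07 and -0.13 and 9 probes were called higher and 8 lower, and under neqc -0.04 and -0.13, with 12 higher and 10 lower. Of 18 dividing-cell marker probes 3 were higher and 15 lower (median -1.61), and of 8 dendritic cell marker probes 5 were higher and 1 lower. Macrophage markers were higher for 3 and lower for 5 of 13 probes (median -0.18). The part of these markers in the ribosomal shift was not tested. Calls of higher fell to 17 without WT M1 replicate 1, 25 without its replicate 2, 26 and 24 without iNOS-/- unstimulated replicate 1 and 2, and 21 and 24 without iNOS-/- M1 replicate 1 and 2. Without WT M1 replicate 2, 1 probe was lower.

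**Figure D3:**
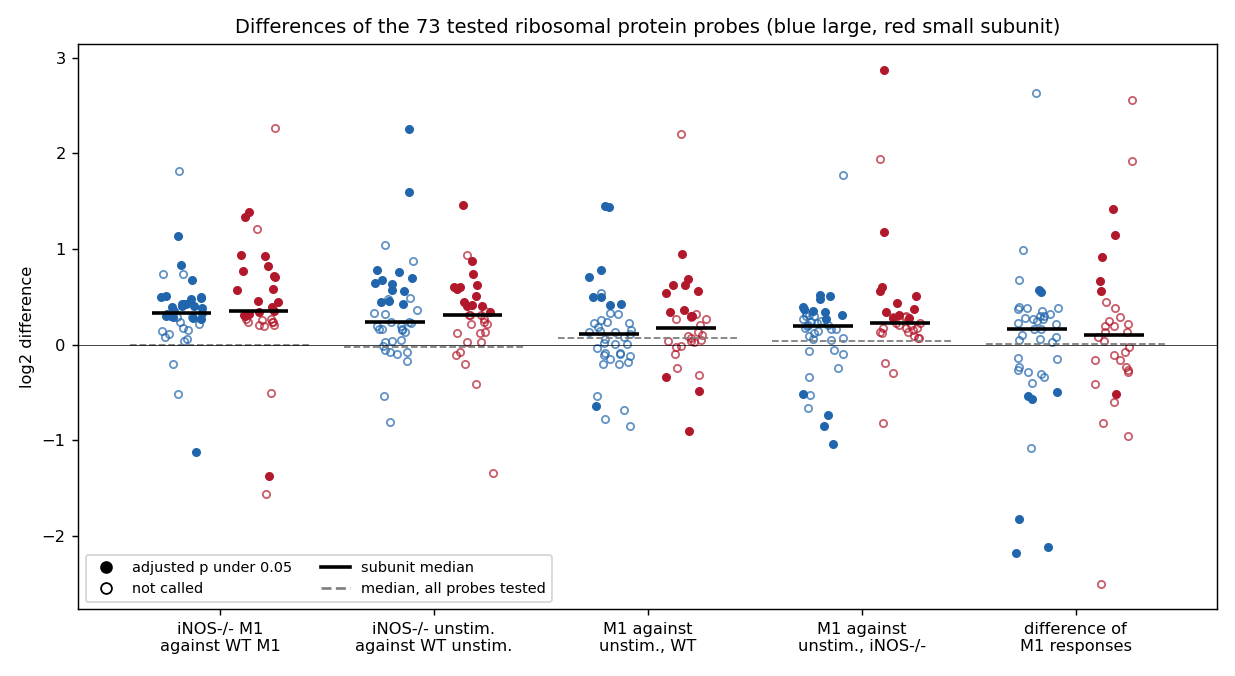
Log2 difference of the 73 tested ribosomal protein probes in each comparison, blue for the large and red for the small subunit, filled where the adjusted p was under 0.05, with each subunit's median as a black bar and the median of all probes tested dashed. Differences are after rank-invariant scaling, and except between the unstimulated groups the sign of at least 1 subunit's median turned under quantile normalization or neqc.

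Rps27l, a paralog of S27 known as a p53 target, had the largest called difference upward. Its log2 intensity was 11.81 and 11.81 in WT unstimulated, 11.84 and 11.86 in WT M1, 12.10 and 12.01 in iNOS-/- unstimulated and 13.16 and 13.31 in iNOS-/- M1. The 2 arrays of iNOS-/- M1 stood apart from the other 6. Between the M1 groups the difference was 1.39 (standard error 0.091, adjusted p = 0.000344 from limma), a fold of 2.61, and it was called under all 17 other settings, from 0.84 to 1.47.

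Among probes called higher, the brighter Rps24 probe (2710477) was next. It stood at 13.27 and 13.30 in unstimulated WT, 12.36 and 12.41 in WT M1, 13.24 and 13.18 in unstimulated iNOS-/- and 13.77 and 13.66 in iNOS-/- M1. WT M1 was the low group, and the 2 M1 groups did not overlap. The difference was 1.34 (standard error 0.085, adjusted p = 0.000314 from limma), called under all 17 other settings. S24 is a core protein of the small subunit in which human mutations cause Diamond-Blackfan anaemia.

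Rpl22l1, the paralog of Rpl22, was higher by 1.13 (standard error 0.339, adjusted p = 0.0409 from limma), at 4.92 and 5.94 in WT M1 and 6.60 and 6.51 in iNOS-/- M1. The WT M1 arrays differed by more between themselves than those of any other group, and the call held under 7 of 17 other settings (adjusted p from 0.00202 to 0.125).

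Rpl22 and Rps15a were the 2 probes called lower. Rpl22, an RNA-binding protein needed for T cell development, stood at 6.60 and 6.74 in WT unstimulated, 7.37 and 7.55 in WT M1, 7.42 and 7.32 in iNOS-/- unstimulated and 6.29 and 6.38 in iNOS-/- M1. The iNOS-/- M1 arrays were the lowest of the 8. The difference between M1 groups was -1.12 (standard error 0.108, adjusted p = 0.000932 from limma) and stayed called under all 17 other settings. Rps15a was lower by -1.37 (adjusted p = 0.0106 from limma), with 4.74 and 4.83 in WT M1 against 3.01 and 3.83 in iNOS-/- M1, by a dim probe at position 5025, and the call held under 15 of 17 other settings.

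Calls were also compared over 5 scalings, of which 1, added after seeing the data, centred every array on the ribosomal protein probes. Those that kept their sign under each were Rpl30, 1 of 2 Rpl31 probes (3420189), 1 of 2 Rps3 probes, Rps27l and both Rps24 probes as higher. Rpl22 and Rps15a kept theirs as lower. The brighter Rpl31 probe (4900348) differed by 0.33 and was not called (adjusted p = 0.0589 from limma). Centred in that way, 7 probes were called higher and 3 lower.

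Between the unstimulated groups the median shift was upward under each scaling that did not centre on the members. Of the large subunit probes 13 of 41 and of the small 13 of 32 were higher by limma in iNOS-/- and 0 were lower, where 15.9% of all probes tested were called higher, 16.2% lower and 32.1% either way. At an unadjusted p under 0.05, 0 large and 0 small subunit probes were lower. The median log2 difference was 0.24 for the large and 0.31 for the small subunit, against -0.02 over all probes. The groups did not overlap for 49 probes with iNOS-/- higher and 8 with it lower, against 33.9% and 36.1% of all. Quantile normalization gave 35 probes higher and 0 lower, and neqc 42 higher and 0 lower. Dividing-cell markers (17 of 18 probes higher, median 1.81) and dendritic cell markers (7 of 8 higher, median 3.92) moved in the same direction. Macrophage markers were higher for 1 and lower for 4 of 13 probes (median -0.26). The part of these markers in the ribosomal shift was not tested. The count of 26 fell to 11 and 14 without WT unstimulated replicate 1 and 2, and to 15 and 12 without iNOS-/- unstimulated replicate 1 and 2.

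Rpl3l, a paralog of L3 known from skeletal muscle and heart, showed the largest difference. It read 6.53 and 6.52 in WT unstimulated, 7.94 and 8.00 in WT M1, 8.76 and 8.81 in iNOS-/- unstimulated and 8.04 and 8.05 in iNOS-/- M1. The 4 values of the unstimulated groups formed pairs far apart, and the M1 groups lay between them. The difference between the unstimulated groups was 2.26 (standard error 0.077, adjusted p = 8.7e-05 from limma), a fold of 4.78, called under all 17 other settings. The array's probes for its RefSeq neighbour Msrb1 (named Sepx1 on the array) differed by -0.63 (adjusted p = 0.00444 from limma) and -0.31 (adjusted p = 0.194) between the same groups, and that for Ndufb10 on the other side by 0.75 (adjusted p = 0.0595).

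Rpl21 (probe 2470364) read 2.35 and 2.97 in WT unstimulated and 4.05 and 4.47 in iNOS-/- unstimulated, and it was called higher (adjusted p = 0.0108 from limma). Only 1 of the 2 WT unstimulated arrays detected it, at deposited intensities of 5.8 and 8.7. The log2 difference moved from 1.60 to 0.58 under neqc and to 0.26 with a floor of 16 (adjusted p = 0.4), and the call held under 14 of 16 other settings. The dimmer Rps24 probe (5490446) read 5.78 and 5.96 against 7.36 and 7.28 and was higher by 1.46 (standard error 0.105, adjusted p = 0.00066 from limma). The brighter Rps24 probe differed by -0.08 in the same comparison and was not called. Under all 5 scalings Rpl21, Rpl3l, Rplp0 and the dimmer Rps24 probe were higher, and centring on the ribosomal protein probes left 4 higher and 12 lower.

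In WT cells, LPS plus IFN-γ raised some members and lowered others, and the medians stayed near those of all probes. Of the large subunit probes 8 were called higher and 1 lower, and of the small 10 higher and 3 lower, where 20.2% of all probes were called higher, 14.9% lower and 35.1% either way. The medians were 0.11 and 0.17, against 0.07 over all. The groups did not overlap for 37 probes with M1 higher and 16 with it lower, against 38.8% and 32.3% of all. A share of 18 of 73 probes called higher is close to the background. Under neqc the large subunit median was -0.02, and quantile normalization gave 0.01. Dividing-cell markers were higher for 16 of 18 probes and dendritic cell markers for 7 of 8 in the same comparison. Without either WT unstimulated array, or without WT M1 replicate 1, 9 probes were higher and 1 lower. Without WT M1 replicate 2, 11 were higher, and without iNOS-/- unstimulated replicate 1 and 2, 2 and 1 were lower.

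The 3 called rises of largest size were Rpl21 (probe 2470364), Rpl3l and the dimmer Rps24 probe. Rpl21 stood at 2.35 and 2.97 before and 4.34 and 3.88 after activation, a difference of 1.45 (adjusted p = 0.0138 from limma) that became 0.42 under neqc and was called under 12 of 16 other settings. Rpl3l rose by 1.44 (adjusted p = 0.000222) between the values given above, and the dimmer Rps24 probe by 0.95 (adjusted p = 0.0024), from 5.78 and 5.96 to 6.78 and 6.86. In none of these 3 did the arrays of the 2 groups overlap.

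The falls were Rps24 by its brighter probe, Rpl23 (probe 5080672), Rps3 (probe 1010672) and Rps16. The brighter Rps24 probe fell by 0.91 on the log2 scale (standard error 0.085, adjusted p = 0.00143 from limma), so the 2 probes of this gene changed in opposite directions, each under all 17 other settings. Rpl23 went from 9.12 and 9.22 to 8.38 and 8.67 (difference -0.65, adjusted p = 0.0269), called under 9 of 17 other settings. Rps3, also known as a DNA repair protein and partner of NF-κB, went from 11.72 and 11.80 to 11.15 and 11.40 (difference -0.49, adjusted p = 0.0314), called under 11 of 17, and its other probe differed by -0.25, not called.

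On the arrays labelled iNOS-/-, activation gave a count that turned with the scaling. Of the large subunit probes 9 were called higher and 4 lower, and of the small 11 higher and, with limma, 0 lower (1 at an unadjusted p under 0.05), where 26.2% of all probes were called higher, 23.8% lower and 50% either way. The medians were 0.20 and 0.23, against 0.04 over all. The groups did not overlap for 51 probes with M1 higher and 10 with it lower, against 40.4% and 36.6% of all. Under neqc the medians became -0.34 and -0.37, with 3 probes higher and 46 lower, and under quantile normalization -0.35 and -0.38, with 3 higher and 40 lower. Under each of these, 9 probes called by rank-invariant scaling were called with the opposite sign. Dividing-cell markers were higher for 2 and lower for 15 of 18 probes (median -1.78), dendritic cell markers higher for 6 and lower for 1 of 8 (median 1.51), and granulocyte markers higher for 4 of 6 (median 1.44). Without iNOS-/- unstimulated replicate 1 and 2, 7 and 6 probes were higher, and without iNOS-/- M1 replicate 1 and 2, 10 and 7. Without iNOS-/- unstimulated replicate 2, 2 were lower.

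Rps27l rose by 1.18 (standard error 0.091, adjusted p = 0.000351 from limma) and Rps4y2, listed as a non-coding RNA, by 0.56 (adjusted p = 0.00536), from 6.02 and 5.88 to 6.52 and 6.50. Both were called under all 17 other settings. Rps25, a small subunit protein known from its role in viral IRES translation, rose by 0.60 (adjusted p = 0.0138), from 10.75 and 10.55 to 11.14 and 11.36, but its neqc difference was 0.01 and the call held under 12 of 17 other settings. Rps27a was called higher by a probe (5550431) undetected in iNOS-/- unstimulated and detected on 1 of 2 iNOS-/- M1 arrays (adjusted p = 0.0417 from limma). Its bound of 1.49-fold rests on a mean that includes the M1 array without detection. The call held under 5 of 14 other settings, and the neqc difference was 0.28 (adjusted p = 0.0599). The brighter Rps27a probe (5290577) differed by 0.30 and was not called (adjusted p = 0.0847), with -0.14 under neqc and quantile normalization.

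Rpl22 fell by 1.04 (standard error 0.108, adjusted p = 0.000968 from limma) and Rpl3l by 0.74 (adjusted p = 0.000965), each under all 17 other settings. Rpl21 (probe 3290050) went from 4.69 and 4.54 to 3.52 and 4.0 (difference -0.85, adjusted p = 0.0418), called under 6 of 17 other settings (adjusted p up to 0.152). Rpl4, whose protein lines the peptide exit tunnel, went from 8.99 and 9.19 to 8.66 and 8.48 (difference -0.52, adjusted p = 0.0138). Rps27l and Rps4y2 as higher and Rpl22, Rpl3l and Rpl4 as lower were called under all 5 scalings.

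**Figure D4:**
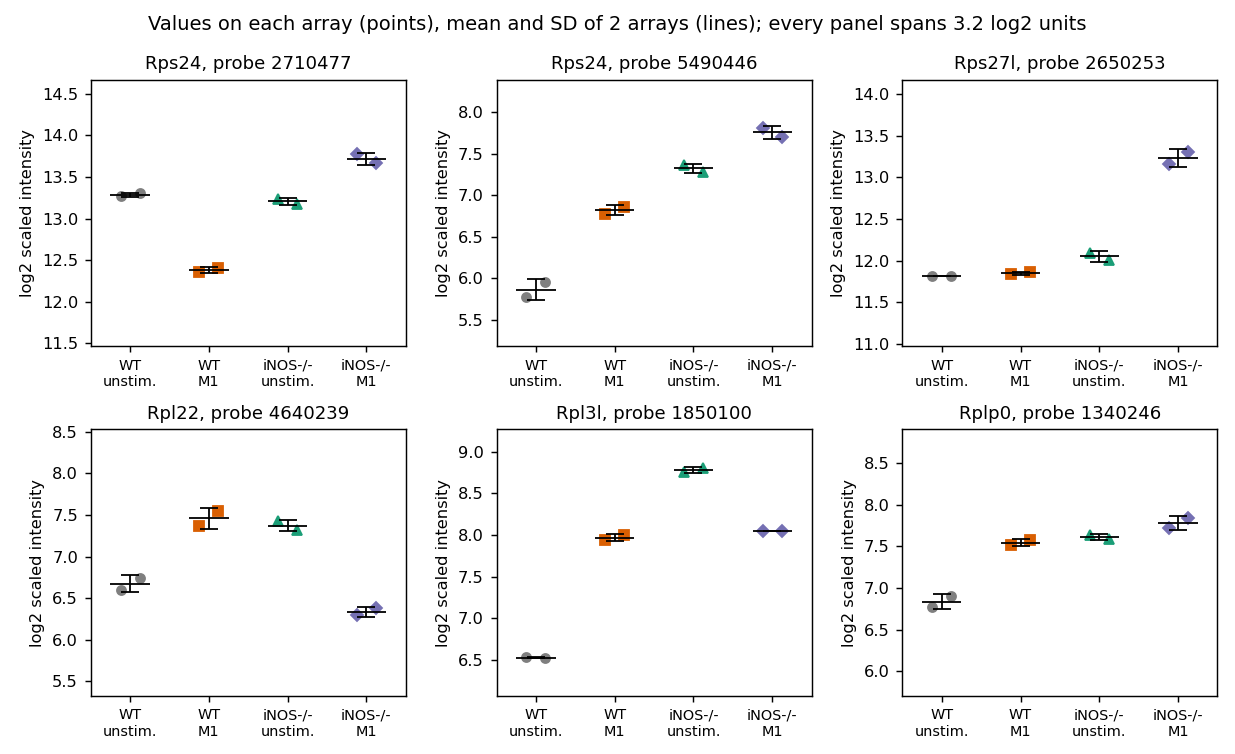
Log2 scaled intensity of Rps24 (both probes), Rps27l, Rpl22, Rpl3l and Rplp0 on each array (points) by group, with the mean and SD of 2 arrays as lines and the same span of 3.2 log2 units in every panel. Rps24 falls in WT M1 by one probe and rises by the other, Rps27l in iNOS-/- M1 stands above the other 6 arrays, and Rpl22 rises in WT but falls in iNOS-/- cells.

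The responses themselves differed between genotypes for 14 of the 73 probes, 7 higher (2 large, 5 small) and 7 lower (6 large, 1 small) on the iNOS-/- minus WT scale. Of all probes, 20.8% were called higher, 21.1% lower and 41.9% either way, so under rank-invariant scaling the members' share was below that of all probes. Under neqc 4 probes were higher and 34 lower, and under quantile normalization 3 and 31. For these 2 scalings the share of all probes called is not given, so the members' share cannot be set against it. Dividing-cell markers were higher for 1 and lower for 16 of 18 probes (median -3.25), and dendritic cell markers lower for 6 of 8 (median -2.28). The median was 0.16 for the large and 0.11 for the small subunit, against 0.01 over all, and it reversed to -0.42 and -0.42 under quantile normalization. The 2 largest differences each way were the brighter Rps24 probe (1.42, standard error 0.12, adjusted p = 0.001 from limma) and Rps27l (1.15, adjusted p = 0.00213) upward, and Rpl3l (-2.18, adjusted p = 0.00029) and Rpl21 probe 2470364 (-2.11, adjusted p = 0.0105) downward. Rpl22 differed by -1.82 (adjusted p = 0.00098), with a rise of 0.79 in WT, and it fell by 1.04 in iNOS-/- cells. All of these were called under each scaling, though Rpl21 probe 2470364 was dim and detected on 1 of 2 WT unstimulated arrays. Its difference was -0.77 under neqc, ran from -2.365 to -0.43 over the other settings and was called under 14 of 15. The other Rpl21 probe (3290050) differed by -1.08 and was not called (adjusted p = 0.0661 from limma). Without 1 array, 3 to 6 probes were higher and 3 to 6 lower.

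**Figure D5:**
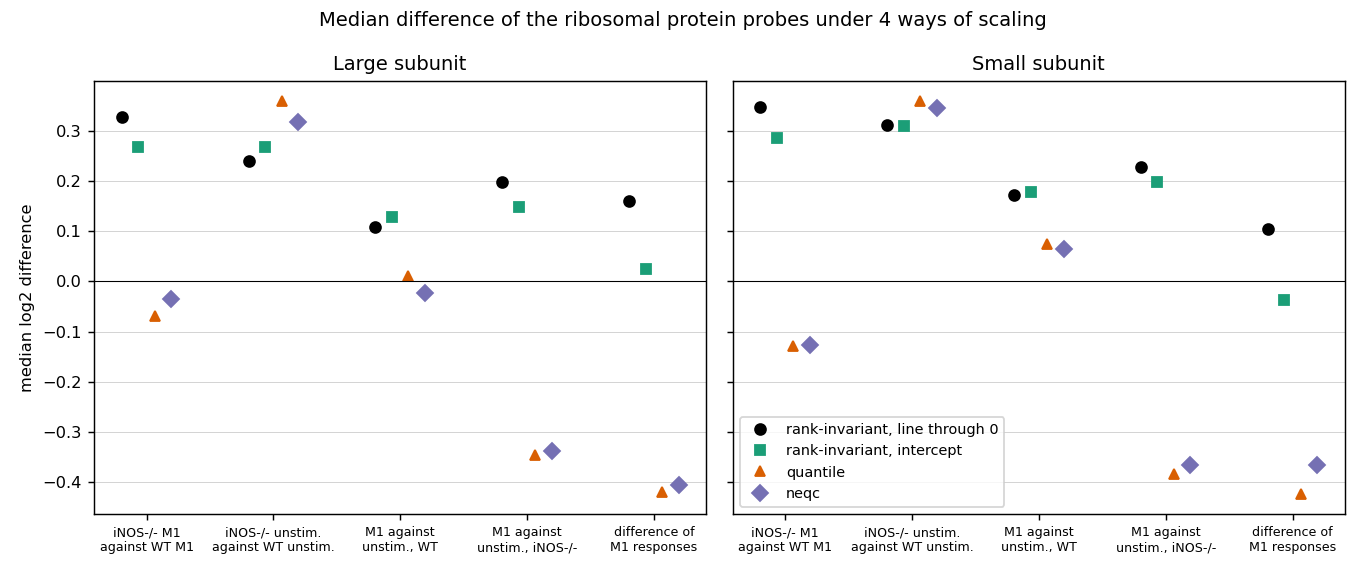
Median log2 difference of the large subunit (left) and small subunit (right) ribosomal protein probes in each comparison under 4 ways of scaling the arrays. The medians between the unstimulated groups stay between 0.24 and 0.36, and those for M1 against unstimulated in iNOS-/- turn from 0.20 and 0.23 to between -0.34 and -0.38 under quantile normalization and neqc.

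Of the 73 probes, 51 (69.9%) ranked above the upper limit of the rank-invariant set on every array, against 13% of all probes tested, so the scale was set on dimmer probes. The brightest member reached at least 82.7% of the brightest probe of its array.

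Members with a role of their own divided as follows. The stalk protein Rplp0 (probe 1340246) read 6.77 and 6.90, 7.52 and 7.57, 7.64 and 7.59, and 7.72 and 7.84 in the order used for the marker sums. WT unstimulated was the low group, with a difference of 0.71 (adjusted p = 0.0043 from limma) on activation in WT and 0.78 (adjusted p = 0.00339) between unstimulated groups. Its partner Rplp1 was called in 1 comparison, higher by 0.48 (adjusted p = 0.00683) in iNOS-/- M1 than unstimulated, and under quantile normalization and neqc this was -0.07. Its deposited intensities there were 19814 and 21015 unstimulated and 20083 and 19985 in M1, which overlap and lie close to the brightest probe of each array (21956 and 21632, 21857 and 20853). The called difference is thus one of scaled values, without a rise in the deposited ones. This was not particular to Rplp1. Rpl3, Rpl12, Rpl24 and Rpl36a were also called higher there, with lower deposited values on both M1 arrays than on either unstimulated array. Scale factors were 0.84 and 0.80 for the unstimulated and 1.12 and 1.21 for the M1 arrays. Rplp2 was not tested.

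Rps6, the main target of S6 kinase, read 11.28 and 11.34, 11.79 and 11.95, 11.95 and 11.88, and 12.07 and 12.06 in the same order. It rose by 0.56 (adjusted p = 0.00866 from limma) in WT and was higher by 0.61 (adjusted p = 0.00717) between unstimulated groups, both under all 17 other settings, though centred on the ribosomal protein probes the second was 0.19 and not called. Between the M1 groups it was not called at 0.19, and it was called lower under quantile normalization (-0.32, adjusted p = 0.0316) and neqc (-0.31, adjusted p = 0.017). On activation in iNOS-/- cells Rps6 differed by 0.15 and was not called (adjusted p = 0.24 from limma). There it was called lower under neqc (-0.51, adjusted p = 0.000951) and quantile normalization (-0.51, adjusted p = 0.00553). The difference of its responses was -0.42, not called (adjusted p = 0.0542), and -1.08 under neqc (adjusted p = 9.06e-05).

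Rpl13a, of the GAIT complex, read 8.43 and 8.38, 8.85 and 8.81, 9.13 and 9.20, and 9.06 and 9.14. It rose by 0.43 (adjusted p = 0.0134 from limma, called under 13 of 17 other settings) in WT. In iNOS-/- cells it differed by -0.06 (adjusted p = 0.554), and was called lower under neqc (-0.37, adjusted p = 0.00671) and quantile normalization (-0.38, adjusted p = 0.0154). It was higher by 0.76 (adjusted p = 0.00226) between unstimulated groups. Between the M1 groups Rpl13a was higher by 0.27 (adjusted p = 0.0422 from limma), called under 4 of 17 other settings. That difference was 0.07 under both neqc and quantile normalization. Of the genes listed with it, the probes of Eprs, Gapdh and Syncrip were not called between the M1 groups. For the kinases upstream, both Dapk1 probes were lower (-1.79 and -1.46, adjusted p = 0.000369 and 0.00048) and that of Dapk3 was not called.

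Rps27a, made as a fusion with ubiquitin, read 9.09 and 9.07, 9.08 and 9.28, 9.52 and 9.65, and 9.80 and 9.97 by its brighter probe. It was higher by 0.71 (adjusted p = 0.00552 from limma) between the M1 groups, under all 17 other settings but not when centred on the ribosomal protein probes (0.35, adjusted p = 0.0875), and by 0.51 (adjusted p = 0.0247, called under 13 of 17) between the unstimulated groups. Rps19 (probe 6280541), also a Diamond-Blackfan gene, was higher by 0.40 (adjusted p = 0.0384) between the unstimulated groups, called under 9 of 17 other settings, and centring on the ribosomal protein probes made this -0.01. In WT the difference on activation was 0.37 (adjusted p = 0.0484), called under 4 of 17, with 0.22 under neqc (adjusted p = 0.106). For Rpsa, the laminin receptor, 1 probe (5490554) was tested and not called. That probe lay near the floor, at a mean log2 intensity of 2.00, and the untested one at 0.43. Between the M1 groups its difference was 2.27 (adjusted p = 0.29 from limma) and ran from 0 to 3.66 over the other settings. It therefore does not show whether Rpsa changed.

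Of the paralog pairs, Rpl36al differed by 0.18 between the M1 groups and was not called, and was called lower under neqc (-0.30, adjusted p = 0.0228) and quantile normalization (-0.30, adjusted p = 0.0408). Rpl36a was higher by 0.48 (adjusted p = 0.0114 from limma), and Rpl36a turned to -0.03 under quantile normalization and neqc. Rpl39 was higher by 0.43 (adjusted p = 0.0425, called under 6 of 17 other settings) between the M1 groups and reversed to -0.12 under the same scalings, and Rpl39l was not tested. Rpl3 was higher by 0.30 (adjusted p = 0.0402, called under 5 of 17) and reversed to -0.23. Neither probe of Rpl7l1 was called in any of the 5 comparisons.

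Different probes of a symbol often stood at very different levels. The 4 Rpl23 probes had means from 2.87 to 13.60, the 3 Rpl37 probes from 0.55 to 13.53 and the 2 Rps24 probes 6.94 and 13.15. Rpl23 in WT had the repeat-like probe 670176 higher by 0.50 (adjusted p = 0.0315 from limma), from 13.19 and 13.33 to 13.69 and 13.82, against -0.65 for probe 5080672. The deposited intensities of probe 670176 overlapped, at 10636 and 11420 unstimulated and 11402 and 11140 in M1. Its called rise is thus one of scaled values. Among the 16 symbols with 2 or more probes, opposite calls were made for Rpl23 in 1 comparison and for Rps24 in 2, the other being the difference of the responses.

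Other genes of the translation machinery, from lists of general knowledge, were read against the same shares of all probes. Ribosome biogenesis genes, such as Nob1 and Polr1a, were higher for 7.89% and lower for 36.8% of 38 probes between the M1 groups (median -0.36), against 24.2% and 24.3% of all probes, and the median was -0.21 under neqc and -0.30 under quantile normalization. On activation in iNOS-/- cells they were higher for 5.26% and lower for 34.2% (median -0.32), against 26.2% and 23.8%. In WT 23.7% were higher and 7.89% lower, against 20.2% and 14.9%, and between the unstimulated groups 15.8% and 2.63%, against 15.9% and 16.2%. Mitochondrial ribosomal proteins were higher for 8.51% and lower for 35.1% of 94 probes on activation in iNOS-/- cells (median -0.27), and for 17% and 20.2% between the M1 groups. Under neqc and quantile normalization the first median was -0.40 and -0.45. Other mRNAs with the TOP motif were higher for 7 and lower for 2 of 22 probes between the M1 groups, which turned to 4 and 8 under neqc and 3 and 7 under quantile normalization, and Eef2, an elongation factor, rose by 0.93 to 0.99 in WT by its 3 probes (adjusted p = 0.00159 to 0.00376 from limma). Gnb2l1 (RACK1), a protein of the small subunit under another symbol, was higher by 1.02 (adjusted p = 0.00135 from limma) between the M1 groups. Among genes that control TOP mRNA translation, 2 probes were higher and 6 lower of 12 between the M1 groups (3 and 5 under neqc and quantile normalization), with Frap1 (mTOR) higher by 1.12 (adjusted p = 0.000684) and Eif4ebp2 lower by -1.85 (adjusted p = 0.000544).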

How the data were processed

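The members and gene lists were chosen with earlier results of these data known. The authors deposited GenomeStudio output for 8 arrays, grouped here from the labels: an intensity for each probe, not normalized between arrays, with the deposited detection p-value beside it. Their methods go on to subtract background, normalize by rank invariance, set negatives to 1 and fit limma on log2 values (version 3.14.4 in the submitters' processing notes). Undetected probes lay around 0 in the file, and no background was subtracted here.

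A robust line without intercept (MASS 7.3.60.0.1) brought every array to the scale of the mean array. It ran through probes of similar rank (within 0.05, as a share of the probe's rank on the mean array) that lay between 0.5 and 0.9 of the ranks. These limits were chosen here, and scale factors ran from 0.801 to 1.30. The floor was an intensity of 1. A probe was tested if 2 or more arrays detected it (detection p-value under 0.05). limma 3.58.1 in R 4.3.3 fitted the 4 group means on the log2 scale, with 2-sided p-values and Benjamini-Hochberg adjustment over 13868 probes. The script was tested on simulated data. The number of arrays limits the precision.

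Where a group did not detect a probe, only a bound is given, from the brighter mean and, on each dim array, the lowest detected value or that of the probe where larger. Single probes are named for the 3 largest called differences each way (2 for the difference of responses) among probes whose brighter group was detected throughout and whose groups were apart, for a role of their own or a paralog, as brightest or dimmest of a subunit, and for 3 or more probes or opposite calls. Any other name was chosen after values were seen. The other settings were neqc, quantile normalization, a line with an intercept, a floor of 16, looser or stricter detection filters, a fit on 4 arrays, a replicate block, an intensity trend and each of the 8 arrays left out, 17 in all for a probe, with 1 probe per symbol and averaged probes for counts. Centring on the ribosomal protein probes, core proteins alone and the other gene lists under each scaling were added after seeing the data. Promoter sequences are from RefSeq. Single values of a few genes are not reported here.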

Additional observations from a re-analysis of the deposited data

Results flagged for a closer look

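The response to LPS plus IFN-γ differed between genotypes, by a test of the difference itself (the interaction contrast in limma, adjusted over all probes tested), for 14 ribosomal protein probes of 73, against 41.9% of all probes. Under neqc 4 were higher and 34 lower, and under quantile normalization 3 and 31, where the share of all probes is not given. The log2 difference, iNOS-/- minus WT, was 1.42 for Rps24 (probe 2710477), 1.15 for Rps27l, 0.91 for Rps25, 0.66 for Rps3 (probe 1010672), 0.58 for Rpl23 (probe 1260315), 0.56 for Rps16 and 0.55 for Rpl36a. It was -2.18 for Rpl3l, -2.11 for Rpl21 (probe 2470364), -1.82 for Rpl22, -0.57 for Rpl29 (probe 1580021), -0.54 for Rplp0, -0.52 for Rps24 (probe 5490446) and -0.49 for Rpl13a. Under all 5 scalings 6 of these kept their call, Rps24 (probe 2710477) and Rps27l upward and Rpl21, Rpl22, Rpl29 and Rpl3l downward. The Rpl21 probe was dim, and its difference was -0.77 under neqc.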

How the results depend on the processing

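With counts given as probes called higher and lower, and in the order iNOS-/- M1 against WT M1, unstimulated iNOS-/- against WT, M1 against unstimulated in WT, the same in iNOS-/-, and the difference of the responses, neqc gave 12 and 10, 42 and 0, 16 and 8, 3 and 46, and 4 and 34. Quantile normalization gave 9 and 8, 35 and 0, 12 and 4, 3 and 40, and 3 and 31. A line with an intercept gave 27 and 2, 32 and 1, 22 and 3, 12 and 3, and 4 and 14. Centring on the ribosomal protein probes gave 7 and 3, 4 and 12, 6 and 14, 5 and 7, and 7 and 5. Shares of all probes called are given for rank-invariant scaling only, so none stands beside these counts. Medians for the large and small subunit under neqc were -0.036 and -0.13 between M1 groups, -0.023 and 0.064 in WT, -0.339 and -0.37 in iNOS-/-, and -0.405 and -0.367 for the difference of responses. Under quantile normalization they were -0.07 and -0.13, 0.01 and 0.075, -0.347 and -0.384, and -0.42 and -0.424, with 0.359 for the large subunit between unstimulated groups. With an intercept the difference of responses had 0.024 and -0.038. The median of all probes was 0.202, -0.107, -0.081, 0.163 and 0.286 with an intercept, in the order of the counts. Between the M1 groups the subunit medians with an intercept, 0.268 and 0.285, stood close to that 0.202. In the same order, the median of all probes was -0.011, -0.017, -0.035, -0.062 and 0.027 under neqc. Under quantile normalization it was -0.024, -0.025, -0.062, -0.13 and -0.039.

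A floor of 16 gave 1 lower between unstimulated groups, and for the difference of responses 11 higher, 12 lower and a small subunit median of 0.02. No detection filter gave 11 lower there and detection on all 8 arrays 12. Fitting the 4 arrays of a comparison gave 13 and 1 between M1 groups, 9 and 1 in WT and 8 and 2 in iNOS-/-. One probe per symbol, brightest or averaged, left 2 lower in WT. An intensity trend gave 8 lower in WT, 31 higher in iNOS-/- and 17 and 13 for the difference.

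Same-numbered arrays did not deviate together (correlations from -0.034 to 0.027 over 9687 probes). With replicate block, 1 probe was lower in WT and 13 higher in iNOS-/-, with 29 and 3, and 22 and 0, between the M1 and the unstimulated groups.

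Without 1 array, calls were 17 to 35 higher and 1 to 3 lower between M1 groups, 11 to 26 and 0 to 1 between unstimulated groups, 9 to 14 and 1 to 4 in WT, 6 to 17 and 2 to 4 in iNOS-/-, and 3 to 6 and 3 to 6 for the difference. Medians were 0.284 to 0.392 and 0.335 to 0.385, 0.206 to 0.319 and 0.198 to 0.327, 0.055 to 0.135 and 0.09 to 0.239, 0.139 to 0.22 and 0.212 to 0.262, and 0.079 to 0.2 and 0.043 to 0.14.

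The single probes checked here were called ones named for the largest differences, a role of their own or a paralog. Other named probes, such as Rpl12 and Rpl24, were not checked singly and may also reverse. Between M1 groups, the checked probes that reversed under neqc and quantile normalization were Rpl3 (-0.226 and -0.226), Rpl36a (-0.031 and -0.032) and Rpl39 (-0.115 and -0.115). In iNOS-/- they were Rpl3 (-0.347 and -0.347), Rpl36a (-0.329 and -0.33), Rpl39 (-0.188 and -0.188) and Rplp1 (-0.066 and -0.066), and for the difference Rpl36a (-0.099 and -0.1). Over all members in iNOS-/-, 9 probes called by rank-invariant scaling were called with the opposite sign under each of these 2 scalings. Among the checked probes, centring reversed Rpl13a (-0.085) and Rpl3 (-0.059) between M1 groups and Rps19 (-0.01) between unstimulated groups. The cause was not tested.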
